A study of Mus musculus with 16 samples.

Results

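The 10 genes described here encode the enzymes of the pentose phosphate pathway, a malic enzyme and a quinone reductase, together with the transcription factor NRF2 and its inhibitor KEAP1. They were taken by gene symbol, and all 10 were found among the 21965 genes of the deposited table. RNA was sequenced from RAW264.7 cells, a mouse macrophage line that the labels describe as leukaemic. The 16 libraries fall into 4 groups of 4. Controls received culture medium as vehicle. A second set received oxLDL, low-density lipoprotein that has been oxidised, at 50 µg/ml. The others received either tirzepatide alone, which the labels put at 100 nmol/ml (whether nmol per litre was meant is not known), or both agents at these doses, called the combination below. Tirzepatide is a drug peptide and an agonist at the GIP and GLP-1 receptors. All groups are the same cell line in high-glucose medium with serum. The labels state neither the duration of treatment nor whether numbered libraries came from separate cultures, so p-values measure the spread between these libraries, which may be technical.

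The pentose phosphate pathway branches off glycolysis at glucose 6-phosphate. Its oxidative branch yields NADPH, the reducing power that cells spend on lipid synthesis, on recycling glutathione and thioredoxin, and, in macrophages, on the NADPH oxidase and nitric oxide synthase. Its non-oxidative branch exchanges carbon between pentoses and glycolytic sugars. NRF2, encoded by Nfe2l2, induces several of these enzymes through antioxidant response elements in DNA, and KEAP1 marks the NRF2 protein for degradation, so the activity of NRF2 is largely set at the level of its protein.

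The promoter windows of the genes that the results turn on are shown first, because G6pdx and Pgd changed with treatment while Me1 and Nqo1 serve as 2 other textbook NRF2 targets. The sequences are from RefSeq on build GRCm38.p6, an earlier build than that of the deposited table, and run 5′ to 3′ on the gene's strand from 250 bases before to 50 bases after an annotated gene start. They lie at chrX:74428831-74429130 (G6pdx), chr4:149166656-149166955 (Pgd), chr9:86695865-86696164 (Me1) and chr8:107403156-107403455 (Nqo1), all on the minus strand. Capitals mark matches to TGACNNNGC, the core letters of the antioxidant response element, searched on both strands.
G6pdx: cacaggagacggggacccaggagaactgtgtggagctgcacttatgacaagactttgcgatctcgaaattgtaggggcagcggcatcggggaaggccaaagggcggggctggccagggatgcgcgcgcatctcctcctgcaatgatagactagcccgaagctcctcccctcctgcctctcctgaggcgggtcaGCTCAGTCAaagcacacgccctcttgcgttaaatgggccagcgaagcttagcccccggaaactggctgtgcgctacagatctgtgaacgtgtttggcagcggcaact
Pgd: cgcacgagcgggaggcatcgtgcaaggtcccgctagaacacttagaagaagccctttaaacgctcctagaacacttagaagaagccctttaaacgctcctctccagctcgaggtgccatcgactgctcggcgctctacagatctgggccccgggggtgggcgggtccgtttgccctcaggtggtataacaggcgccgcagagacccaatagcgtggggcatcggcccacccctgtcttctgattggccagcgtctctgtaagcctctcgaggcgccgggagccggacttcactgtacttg
Me1: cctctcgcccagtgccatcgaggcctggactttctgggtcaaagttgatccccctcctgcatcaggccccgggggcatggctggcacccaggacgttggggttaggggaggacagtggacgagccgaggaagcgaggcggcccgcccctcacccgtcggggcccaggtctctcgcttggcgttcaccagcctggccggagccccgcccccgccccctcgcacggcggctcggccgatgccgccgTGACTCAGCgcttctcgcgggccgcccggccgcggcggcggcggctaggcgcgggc
Nqo1: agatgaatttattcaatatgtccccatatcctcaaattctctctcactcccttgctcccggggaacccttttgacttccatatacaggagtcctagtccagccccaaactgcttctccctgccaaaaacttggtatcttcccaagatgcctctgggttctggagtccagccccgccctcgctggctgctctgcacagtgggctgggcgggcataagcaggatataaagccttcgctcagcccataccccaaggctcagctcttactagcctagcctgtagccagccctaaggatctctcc
G6pdx held the reverse-strand match GCTCAGTCA starting at position -57 from the gene start, and Me1 held TGACTCAGC starting at position -6. The match of Me1 also contains TGACTCA, the letters of the AP-1 element, which overlap those searched. Nfe2l2 held TGACTCCGC at position -240. Pgd held no match in the window shown. Its other annotated start lies downstream (window chr4:149166033-149166332, minus strand), and that window held TGACATTGC at position 4, past the start and so in transcribed sequence. Whether that start is used in these cells was not tested. All 10 genes matched the RefSeq table, with 12 windows in all, and 4 genes held a match, Pgd only in the window of its downstream start. Among all 32851 windows of this length from RefSeq, 12.4% held a match and 5.2% held the AP-1 letters. By gene, 14% of 27025 genes held a match in at least 1 window. A match describes these letters and shows no binding. A window without a match, such as that of Nqo1, says nothing about elements more than 250 bases upstream.

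Library totals ran from 15877278 to 17336019 expected counts. Of 10 macrophage markers 9 were above 1 TPM (a level scaled for gene length and library depth) in every library. The other, Mertk, stood at 0.165 to 0.611 TPM. The summed level of the 10 markers, most of it Lyz2, was 17118 to 18413 TPM in control, 21871 to 23186 TPM with oxLDL, 20397 to 21294 TPM with tirzepatide and 21447 to 23724 TPM in the combination. Pancreatic acinar transcripts summed to 24.2 to 394 TPM in control against 7.71 to 71 TPM in the other groups, with 21 of 22 markers above 0 in control and Prss1 at 0 in every group. Mitochondrial genes took 7.69% to 11.2% of counts, with the highest shares in control 1 and combination 1. Summed fibroblast markers stayed at or under 2.10 TPM, and hepatocyte, erythroid and lymphocyte markers at or under 1.52 TPM, with Hbb-bt, Apoa1 and Cd3e among those at 0. The part of the marker differences in the results below was not tested. In bulk RNA, fewer cells that use a gene and less of its RNA per cell cannot be told apart.

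The levels of the members spanned a wide range, and their order was nearly the same in every group. Me1, the cytosolic malic enzyme that makes NADPH from malate, was the most abundant at 1602 to 1830 TPM, rank 63 of all genes in the table by mean TPM. G6pdx ranked 271, Taldo1 442, Tkt 564 and Pgd 638. In control the order by mean TPM was Me1, G6pdx, Taldo1, Tkt, Pgd, Pgls, Nfe2l2, Rpia, Keap1 and Nqo1, and no neighbours in that order overlapped in range. Pgd stood under Tkt in control, at 145 to 162 TPM against 189 to 220 TPM. In the combination Pgd had the higher mean, 206 ± 12 TPM (SD, n = 4) against 202 ± 14.9 TPM for Tkt, with overlapping ranges.

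**Figure D1:**
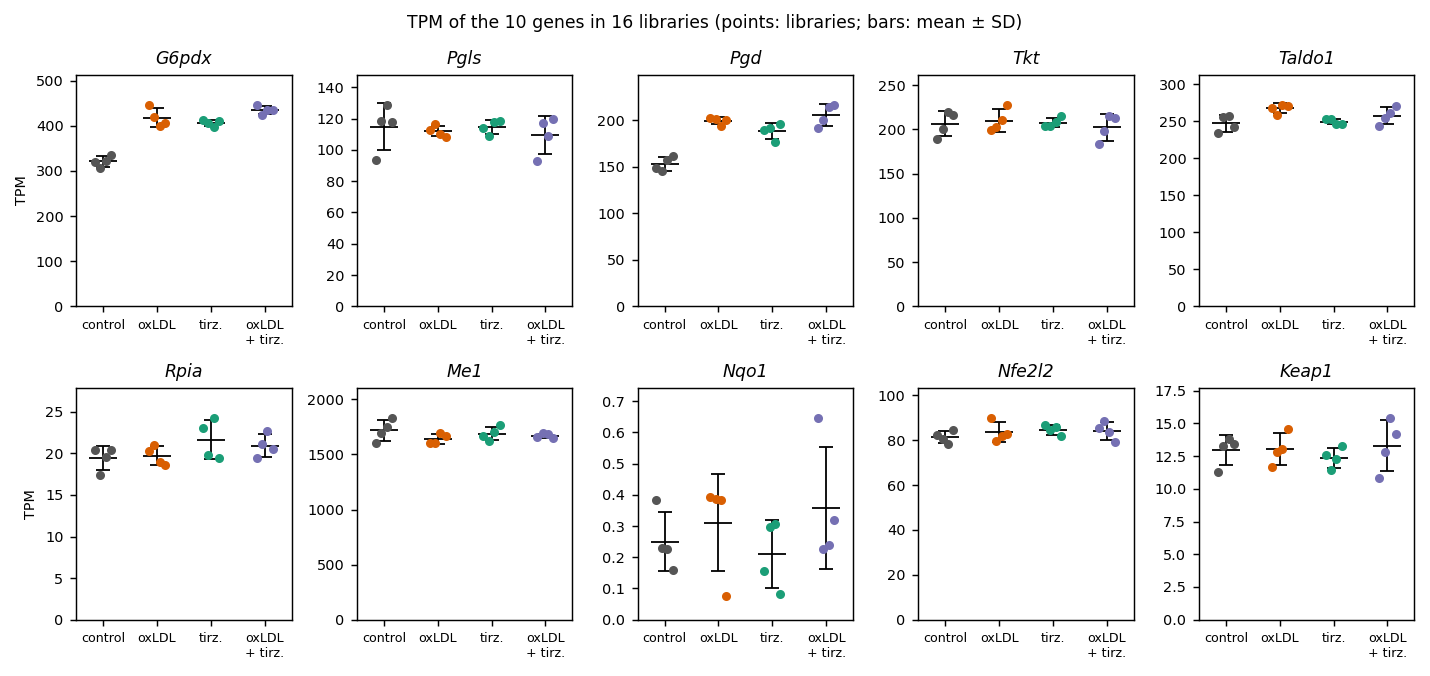
Level in TPM of each of the 10 genes (y axes, starting at 0) in the 4 groups (x axes), with 1 point per library and bars for the mean ± SD (n = 4). All G6pdx and Pgd points of the treated groups lie above the control points, and Nqo1 lies between 0.077 and 0.646 TPM.

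G6pdx encodes glucose-6-phosphate dehydrogenase, the rate-limiting entry enzyme of the pathway and its first source of NADPH. Its level was 319, 307, 323 and 335 TPM in controls 1 to 4 and 447, 419, 400 and 406 TPM with oxLDL. With tirzepatide it was 413, 406, 397 and 410 TPM, and in the combination 447, 425, 436 and 435 TPM. Every treated library lay above every control, and every combination library lay above every tirzepatide library, whereas the oxLDL group overlapped both. The difference between the combination and tirzepatide did not pass the test given below. How many of all genes separate in this way was not counted. OxLDL raised G6pdx 1.29-fold (log2 change 0.37, SE 0.05, adjusted p = 1.3e-05 by edgeR's quasi-likelihood test with Benjamini-Hochberg adjustment, as for all adjusted p-values below). Tirzepatide without oxLDL raised it 1.24-fold (log2 change 0.31, SE 0.05, adjusted p = 0.000276 by edgeR). Both comparisons use the same 4 controls. The retrocopy G6pd2, with which reads could be shared, was listed at 0 in all 16 libraries.

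Pgd encodes 6-phosphogluconate dehydrogenase, the pathway's other NADPH-producing step. It stood at 149, 145, 157 and 162 TPM in controls 1 to 4 and at 202, 202, 194 and 201 TPM with oxLDL. Tirzepatide gave 189, 192, 176 and 196 TPM, and the combination 192, 200, 215 and 217 TPM. All 12 treated libraries again lay above all 4 controls, and the 3 treated groups overlapped one another. The rise was 1.3-fold with oxLDL (0.38 on the log2 scale with an SE of 0.04, adjusted p = 1.04e-05 by edgeR) and 1.2-fold with tirzepatide (log2 change 0.27, SE 0.04, adjusted p = 0.00159 by edgeR).

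Pgls, the lactonase that acts between these dehydrogenases, had no call. It stood at 93.4, 119, 129 and 118 TPM in control, 113, 116, 110 and 109 TPM with oxLDL, 114, 109, 118 and 118 TPM with tirzepatide and 93, 117, 109 and 119 TPM in the combination. The groups overlapped, and the lowest values were those of control 1 and combination 1, the libraries with the highest mitochondrial shares. Its log2 change was -0.04 with oxLDL (95% interval -0.19 to 0.11) and -0.02 with tirzepatide (-0.17 to 0.13), so changes the size of those of G6pdx lay outside both intervals.

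The 3 members of the non-oxidative branch had no call in any comparison. Taldo1, transaldolase, was at 234, 256, 258 and 242 TPM in control and 269, 258, 272 and 271 TPM with oxLDL. The oxLDL libraries lay above the controls by a narrow margin, and its log2 change, 0.11 with an SE of 0.04, did not pass (adjusted p = 0.156 by edgeR). Tirzepatide left a log2 change of -0.02 (95% interval -0.10 to 0.07) in Taldo1. Tkt, transketolase, spanned 189 to 220 TPM in control and 183 to 228 TPM over the treated libraries. Its log2 change was 0.05 with oxLDL (95% interval -0.04 to 0.15) and 0.04 with tirzepatide (-0.06 to 0.13), and both turned negative without controls 1 and 2 (-0.0172 and -0.0326). Rpia, ribose-5-phosphate isomerase, was at 17.4 to 24.3 TPM over all libraries, with log2 changes of 0.01 (SE 0.09) with oxLDL and 0.13 (SE 0.09, adjusted p = 0.469 by edgeR) with tirzepatide. The sign of the first turned in 3 of the settings that leave out 1 library (-0.0356 to -0.0116).

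**Figure D2:**
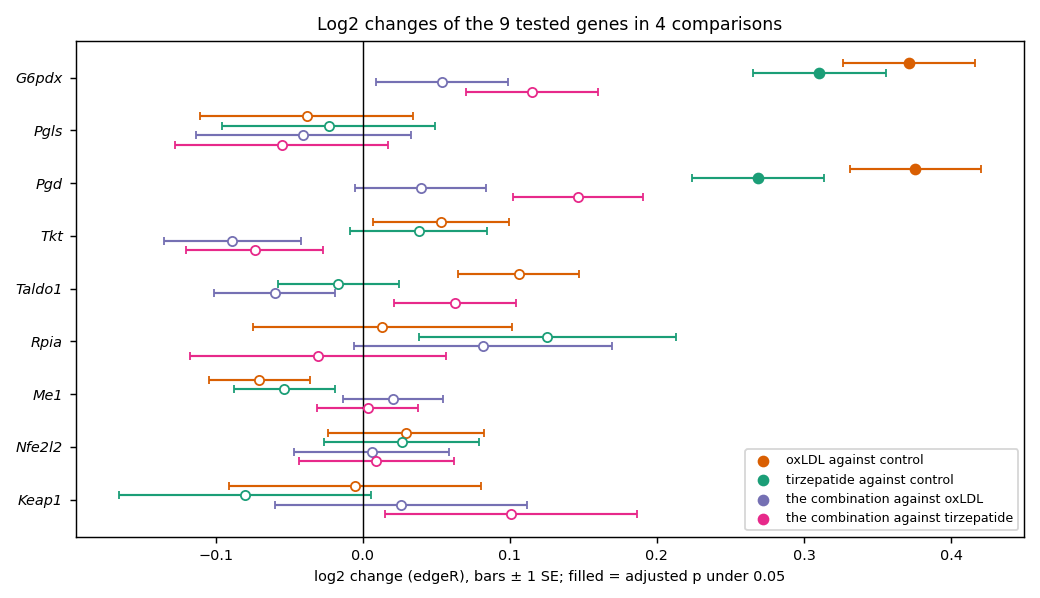
Log2 change from edgeR (x axis, bars ± 1 SE) of the 9 tested genes (y axis) in 4 comparisons, filled where the adjusted p was under 0.05. The 4 filled points are G6pdx and Pgd, each with oxLDL and with tirzepatide against control, at 0.27 to 0.38.

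Of the 9 members tested, 2 were called with oxLDL against control, both higher, where 2.49% of all 11319 tested genes were called higher, 2.05% lower and 4.54% in either direction. With tirzepatide against control the same 2 members, G6pdx and Pgd, were higher, against a background of 2.34% higher, 1.74% lower and 4.08% in either direction. The median log2 change over the 9 members was 0.03 in both comparisons, beside -0.002 and -0.00014 over all tested genes, since the other 7 members stayed near 0. The calls of G6pdx and Pgd in these comparisons held in each of the 26 alternative settings run, with log2 changes of 0.33 to 0.41 (G6pdx) and 0.34 to 0.40 (Pgd) for oxLDL and of 0.28 to 0.35 (G6pdx) and 0.23 to 0.30 (Pgd) for tirzepatide. Without controls 1 and 2, which held the most acinar transcripts, the log2 changes were 0.38 and 0.31 for G6pdx and 0.35 and 0.24 for Pgd.

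Ratios taken within a library do not depend on scaling between libraries. The ratio of G6pdx to Tkt in TPM was 1.69, 1.54, 1.47 and 1.55 in controls 1 to 4. It was 1.78 to 2.24 with oxLDL, 1.91 to 2.03 with tirzepatide and 2.03 to 2.44 in the combination, so all treated libraries lay above all controls. Pgd over Tkt showed the same separation, with 0.714 to 0.788 in control, 0.881 to 1.02 with oxLDL, 0.846 to 0.938 with tirzepatide and 0.999 to 1.05 in the combination. G6pdx over Pgd, by contrast, overlapped in all groups, with means of 2.09 ± 0.0412 in control, 2.09 ± 0.0812 with oxLDL, 2.16 ± 0.0709 with tirzepatide and 2.12 ± 0.147 in the combination (SD, n = 4). The summed oxidative branch (G6pdx, Pgls, Pgd) was 1.21 to 1.28 times the summed non-oxidative branch (Tkt, Taldo1, Rpia) in control and 1.38 to 1.64 times in the treated libraries. The ratios over Tkt and of the summed branches restate the rises of G6pdx and Pgd beside genes without a call. Pgls, the other gene of the oxidative sum, had no call. These ratios are descriptions and were not tested.

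**Figure D3:**
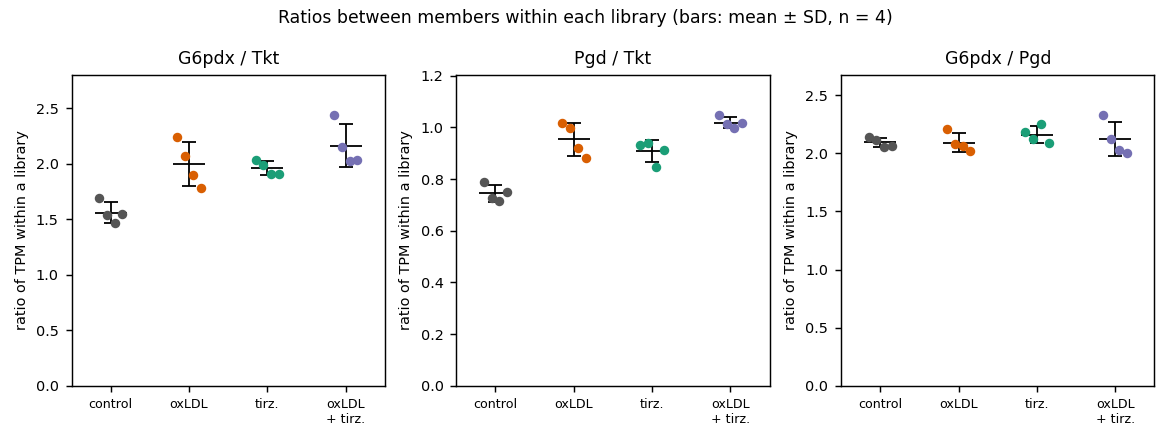
Ratio of the TPM of 2 members within each library (y axes, starting at 0) in the 4 groups (x axes), with 1 point per library and bars for the mean ± SD (n = 4). G6pdx / Tkt and Pgd / Tkt lie higher in every treated library than in any control, and G6pdx / Pgd overlaps across the groups.

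The effect of adding the other agent was examined next. When tirzepatide was added to oxLDL, no member was called by edgeR, DESeq2 or limma, and 0 had an unadjusted p under 0.05, where 0.0353% of all genes were called by edgeR. G6pdx had a log2 change of 0.05 (95% interval -0.04 to 0.15) and Pgd one of 0.04 (-0.05 to 0.13). When oxLDL was added to tirzepatide, no member was called by edgeR either, against 1.54% of all genes (0.76% higher and 0.777% lower), and 2 members, G6pdx and Pgd, had an unadjusted p under 0.05. For Pgd the log2 change was 0.15 with an SE of 0.04 (adjusted p = 0.103 by edgeR), and it was called by DESeq2 (adjusted p = 0.031), the 1 call among the members by that tool, whereas limma made 0. G6pdx had 0.11 (SE 0.04, adjusted p = 0.234 by edgeR).

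The interaction is the log2 change of the combination against control less the log2 changes of both agents given singly. It was negative for G6pdx (-0.26, SE 0.06, adjusted p = 0.127 by edgeR) and for Pgd (-0.23, SE 0.06, adjusted p = 0.182 by edgeR), and neither passed. These were the 2 members with an unadjusted p under 0.05. No member was called by edgeR, against 0.0707% of all genes, nor by limma, but G6pdx was called by DESeq2 (-0.25, adjusted p = 0.0277) and by edgeR with the mitochondrial share of counts as a covariate (-0.32, adjusted p = 0.0107). Over all alternatives its adjusted p ran from 0.0107 to 0.36. The interaction of Tkt was -0.13 (SE 0.07, adjusted p = 0.514 by edgeR), and those of the other 6 tested members lay between -0.04 and 0.11.

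Me1 had no call by edgeR. It was at 1605, 1694, 1746 and 1830 TPM in controls 1 to 4, at 1602 to 1695 TPM with oxLDL, at 1622 to 1763 TPM with tirzepatide and at 1647 to 1691 TPM in the combination. The groups overlapped, and the log2 change with oxLDL was -0.07 (95% interval -0.14 to 0.0004, adjusted p = 0.282 by edgeR). With tirzepatide it was -0.05 (SE 0.03, adjusted p = 0.431 by edgeR), and this passed under quantile normalization with limma (-0.12, adjusted p = 0.0429).

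Nqo1, the quinone reductase often used as a readout of NRF2, was close to undetected. Its counts summed to 13 in control, 16 with oxLDL, 11 with tirzepatide and 18 in the combination over 4 libraries each, and it was too low to be tested. The libraries held 0.16 to 0.385, 0.077 to 0.394, 0.082 to 0.306 and 0.228 to 0.646 TPM in that order, so the groups overlapped throughout. Without a filter on low counts its log2 change with oxLDL was 0.29 with an SE of 0.77, so no difference was detectable at this depth.

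Neither regulator was called in any comparison. Nfe2l2 stood at 82.3, 80.7, 78.3 and 84.6 TPM in control, 89.8, 79.8, 81.8 and 82.6 TPM with oxLDL, 86.6, 84.4, 86 and 81.7 TPM with tirzepatide and 85.3, 88.3, 83.5 and 79.1 TPM in the combination. All groups overlapped, with log2 changes of 0.03 with oxLDL (95% interval -0.08 to 0.14) and 0.03 with tirzepatide (-0.08 to 0.14). The sign turned without oxLDL 1 in the first (-0.0194) and without control 3 (-0.0025) or with quantile normalization (-0.0029) in the second. Keap1 spanned 10.9 to 15.4 TPM, lowest in combination 1. Its log2 change was -0.01 (95% interval -0.18 to 0.17) with oxLDL, a sign that turned in 5 settings (0.0097 to 0.0253), and -0.08 (-0.26 to 0.10) with tirzepatide.

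Other genes of the same pathways were read from lists, each beside the share of all tested genes called in that comparison. With oxLDL that share was 2.49% higher and 2.05% lower, with tirzepatide 2.34% and 1.74%, and for oxLDL added to tirzepatide 0.76% and 0.777%. A list with 1 call is near that share and is no result about the list. These lists were chosen with earlier results of these data known, so their counts are descriptions. Of 13 tested genes of the pentose and ribose phosphate pathways 1 rose with oxLDL and 0 fell, H6pd, which encodes the glucose-6-phosphate dehydrogenase of the endoplasmic reticulum (29 ± 4.68 against 38.3 ± 4.91 TPM), by 0.26 on the log2 scale with an SE of 0.07 (adjusted p = 0.0226 by edgeR). Its call was lost without control 1 or 2 or oxLDL 2, 3 or 4 (adjusted p from 0.0627 to 0.107 by edgeR), with the acinar share as covariate (log2 change 0.17, adjusted p = 0.234 by edgeR) and without controls 1 and 2 together (log2 change 0.16, adjusted p = 0.294 by edgeR). With tirzepatide 0 of the 13 were called by edgeR, DESeq2 or limma, and 0 had an unadjusted p under 0.05. Of 11 tested genes of other NADPH suppliers and NADP synthesis 0 were called with oxLDL by edgeR, DESeq2 or limma, with 1 unadjusted p under 0.05. Among them Idh1, the cytosolic NADP-dependent isocitrate dehydrogenase, had a log2 change of 0.02 (SE 0.05), and the NAD kinase Nadk one of 0.01 (SE 0.05). With tirzepatide 1 of the 11 rose, Mthfd1l of mitochondrial folate metabolism, whose enzyme does not itself make NADPH (log2 change 0.23, SE 0.06, adjusted p = 0.0394 by edgeR). That call was lost without any 1 of 11 libraries, namely controls 1 and 2, the 4 oxLDL and 4 tirzepatide libraries and combination 4 (0.0511 to 0.172 by edgeR), and in 5 other settings (0.0583 to 0.524), among them the acinar covariate (log2 change 0.12) and leaving out controls 1 and 2 together (0.08). When oxLDL was added to tirzepatide 1 of the 11 fell, Aldh1l2, a mitochondrial folate enzyme that makes NADPH (-0.22, SE 0.05, adjusted p = 0.0113 by edgeR, and 0.0749 without combination 4).

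Of 17 tested NADPH-consuming genes 3 rose and 1 fell with oxLDL, where 2.49% of all genes rose and 2.05% fell, and 2 calls were left without control 3 or without oxLDL 1. Txnrd1, the cytosolic thioredoxin reductase, went from 148 ± 14.3 to 190 ± 10 TPM, a log2 change of 0.33 with an SE of 0.05 (adjusted p = 0.00022 by edgeR). Nos2, the inducible nitric oxide synthase, fell by 0.45 on the log2 scale (SE 0.09, adjusted p = 0.0027 by edgeR). With tirzepatide 2 of the 17 rose and 1 fell, and 1 call was left without control 2 or tirzepatide 1 or 2. Ncf1, the p47 subunit of the phagocyte NADPH oxidase, had a log2 change of 0.20 with an SE of 0.05 (adjusted p = 0.0207 by edgeR), a call lost without control 1 or 2 or tirzepatide 1, 2 or 4 (0.0532 to 0.0852), with quantile normalization (0.0662), with the acinar covariate (0.132) and without controls 1 and 2 together (0.215). When oxLDL was added to tirzepatide 2 rose and 1 fell, and 1 call was left without tirzepatide 2, 3 or 4 or combination 1 or 3. Cybb, the oxidase core, rose by 0.27 on the log2 scale with an SE of 0.06 (adjusted p = 0.0162 by edgeR), a call lost without tirzepatide 2, 3 or 4 or combination 1 or 3 (0.0524 to 0.0747). Nos2 had -0.36 (SE 0.09, adjusted p = 0.0387 by edgeR), lost by DESeq2 (0.0584) and in 12 of the 16 settings that leave out 1 library (0.0527 to 0.19), that is, all but those without control 1, 3 or 4 or combination 2.

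Other targets of NRF2 were read beside G6pdx and Pgd. The lists overlap, so some calls are counted again: Txnrd1 and Akr1b8, among others, are also on the list of NADPH consumers. Of 26 other tested targets 13 rose and 0 fell with oxLDL, where 2.49% of all genes rose, with a median log2 change of 0.22. Hmox1, heme oxygenase 1, went from 411 ± 19.2 to 708 ± 5.8 TPM, the cystine transporter Slc7a11 from 84.9 ± 5.98 to 139 ± 5.47 TPM, and Cat, catalase, from 147 ± 8.75 to 189 ± 5.3 TPM. Their log2 changes were 0.78 (SE 0.10), 0.70 (SE 0.07) and 0.35 (SE 0.05). With tirzepatide 2 of the 26 rose and 1 fell, where 2.34% of all genes rose and 1.74% fell, and the median was -0.02. These 3 calls became 0 without control 2, 1 without control 3 or tirzepatide 1, 2 or 3, 1 without controls 1 and 2 together, and 5 without control 4. Slc7a11 reached 113 ± 3.41 TPM, up 0.34 on the log2 scale with an SE of 0.07 (adjusted p = 0.00796 by edgeR). Without control 2 the adjusted p was 0.0533 by edgeR. The autophagy receptor Sqstm1 had 0.16 (SE 0.05, adjusted p = 0.044 by edgeR), lost in 12 of the 16 settings that leave out 1 library (0.0504 to 0.129) and kept without any 1 of control 4 and combination 1, 2 or 3. It was also lost in 5 of the 10 other settings (0.0549 to 0.301), the highest without controls 1 and 2 together. The reductase Akr1b8 fell by 0.16 (SE 0.04, adjusted p = 0.0303 by edgeR), lost without control 2 or 3 or tirzepatide 1, 2 or 3 (0.0531 to 0.111), with the acinar covariate (0.155) and without controls 1 and 2 together (0.22). Added to tirzepatide, oxLDL raised 9 of the 26 and lowered 0, where 0.76% of all genes rose, with Akr1b8 at 0.23 (SE 0.04), Hmox1 at 0.57 (SE 0.10) and Slc7a11 at 0.39 (SE 0.07). The count was 5 without combination 1 or without combination 4, and 13 without combination 2, whose Hmox1 stood at 425 TPM where the group reached 740 TPM. In that library G6pdx (425 TPM) was the lowest of the combination. It was still above all tirzepatide libraries, though the difference between these groups was not called (adjusted p = 0.234 by edgeR). Tirzepatide added to oxLDL gave 0 calls of 26 by edgeR, DESeq2 or limma, with 4 unadjusted p-values under 0.05.

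**Figure D4:**
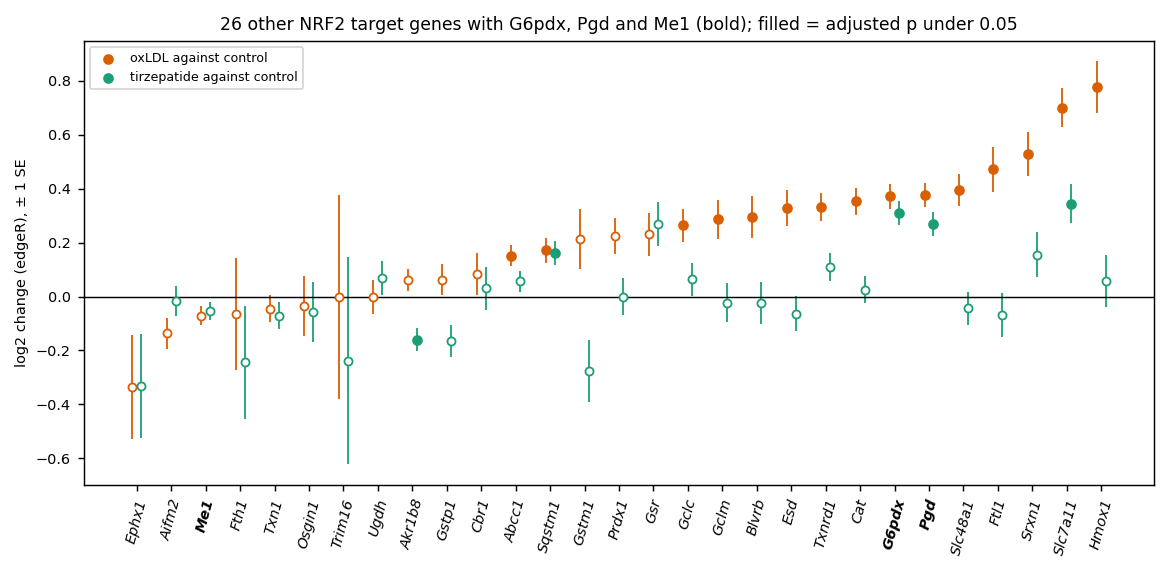
Log2 change from edgeR (y axis, bars ± 1 SE) of 26 other NRF2 target genes and of G6pdx, Pgd and Me1 (x axis, ordered by the oxLDL change) with oxLDL and with tirzepatide, each against the same controls, filled where the adjusted p was under 0.05. With oxLDL 13 of the 26 are filled above 0, and with tirzepatide Slc7a11 and Sqstm1 are filled above 0 and Akr1b8 below it. G6pdx, Pgd, Slc7a11 and Sqstm1 are filled in both comparisons.

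Of 14 tested parts of the NRF2 degradation and partner machinery 1 rose with oxLDL, near the 2.49% of all genes, Sqstm1, which also binds KEAP1 (log2 change 0.17, SE 0.05, adjusted p = 0.026 by edgeR). It was lost without control 1 or 2 or oxLDL 1, 2 or 4 (0.0571 to 0.0943), with quantile normalization (0.148), with the acinar covariate (0.198) and without controls 1 and 2 together (0.249). The same gene was the 1 called with tirzepatide. Sqstm1 is also on the list of NRF2 targets, so both calls were already counted there. The E3 ligase scaffold Cul3, with which KEAP1 works, had a log2 change of 0.03 (SE 0.05) with oxLDL, and the NRF2 competitor Bach1 one of 0.02 (SE 0.06).

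Genes whose log2 CPM followed these 2 members over the 16 libraries were sought among all tested genes. Closest to G6pdx were Acod1, which makes itaconate (Pearson r = 0.951), Lyz2 (0.944), Cab39 (0.938), Rbm3 (0.936) and Plek (0.933). Closest to Pgd were Snx9 (0.966), Glyr1 (0.934), Cd300ld (0.932), the lipid droplet gene Plin2 (0.922) and Lyz2 (0.909). Between G6pdx and Pgd the correlation was 0.94, and the next highest among the members was 0.548, for Tkt with Pgls and with Keap1. The points share libraries, scaling and group means, so these values are descriptions. Acod1 had group means of 12.6 TPM in control, 22.9 TPM with oxLDL, 24.2 TPM with tirzepatide and 23.5 TPM in the combination, so its highest mean was with tirzepatide, where G6pdx had its lowest treated mean.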

How the data were processed

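Poly(A)-selected RNA of 16 libraries was sequenced. RSEM, StringTie 1.3.1, Bowtie2 2.2.8, fastp 0.18.0 and build GRCm39 (mm39) are named in the submitters' processing notes, with no role given. The deposited table holds the authors' expected counts and TPM per gene. Expected counts were rounded to whole numbers, and TPM was used as deposited for levels and ratios.

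Genes passing filterByExpr (minimum count 10; 11319 genes) were fitted over all 16 libraries with edgeR 4.0.16 in R 4.3.3 (TMM scaling, quasi-likelihood test), with Benjamini-Hochberg adjustment over all genes tested and a threshold of 0.05. Intervals are at 95%. limma 3.58.1, DESeq2 1.42.0, other filters and scalings, covariates, a replicate block and leaving out each library were alternatives. The fitting script was tested on simulated data. Members and gene lists were chosen with earlier results of these data known. All members were named, with up to 3 called genes of smallest p per list and comparison, and the 5 genes most correlated with G6pdx and with Pgd. Replicates of a group differed by more than sampling noise in all 24 pairs (chi-square per degree of freedom 2.71 to 17.7). Some genes counted in the list of NADPH consumers are not reported here by name.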

Additional observations from a re-analysis of the deposited data

Results flagged for a closer look

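Nqo1 in oxLDL 4 stood at 0.077 TPM, 1 expected count, far from the other oxLDL libraries at 0.383 to 0.394 TPM. It was the 1 library marked as far from its group among 40 sets of a gene and a group, where chance marks about 1 set in 20.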

How the results depend on the processing

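Members called numbered 0 when oxLDL was added to tirzepatide and 1 by DESeq2 (Pgd). For the interaction 0 became 1 with DESeq2, with the mitochondrial share as covariate and with the replicate block (G6pdx each time, adjusted p = 0.0213 with the block, log2 change -0.26). With the block the calls among NADPH consumers went from 4 to 7 with oxLDL and from 3 to 5 with tirzepatide. The replicate numbers were not taken as pairing the libraries. Of 24 same-numbered pairs 10 deviated together with r above 0.1 (-0.188 to 0.405), and 6 of 16 libraries correlated best with their own number. The pairs numbered 1, however, all had r above 0.1 (0.109 to 0.405). In every group libraries 1 and 2 had higher mitochondrial shares than 3 and 4 (in control 11.2% and 9.53% against 8.39% and 8.32%). Tkt was lower in libraries 1 and 2 in every group. Whether the numbers mark a batch was not tested. Restricting the fit to the groups compared was not run for the interaction. The cause of the changes in calls was not tested.

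Of 1161 member values under alternatives 1101 kept direction and side of the threshold, 5 came past it and 55 changed sign. The sign changes outside the settings that leave out 1 library were these. With oxLDL, Tkt had -0.0155 with the acinar share as covariate and -0.0172 without controls 1 and 2, and Keap1 had 0.0115 with quantile normalization. With tirzepatide, Tkt had -0.0107 with the mitochondrial covariate, -0.0230 with the acinar covariate and -0.0326 without controls 1 and 2, Taldo1 had 0.0021 without those controls, and Nfe2l2 had -0.0029 with quantile normalization. With the mitochondrial covariate Nfe2l2 had -0.0318 for the combination against tirzepatide and -0.0260 against oxLDL. The interaction of Pgls became 0.0798, 0.0858 and 0.0624 with the mitochondrial covariate, the acinar covariate and without controls 1 and 2, and that of Nfe2l2 0.0058 with quantile normalization.

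Leaving out 1 library, log2 changes that crossed 0 with oxLDL ran from -0.1107 to 0.0141 (Pgls), -0.0356 to 0.0556 (Rpia), -0.0194 to 0.0533 (Nfe2l2) and -0.0576 to 0.0253 (Keap1). With tirzepatide they ran from -0.0968 to 0.0279 (Pgls), -0.0016 to 0.0588 (Tkt), -0.0475 to 0.0013 (Taldo1) and -0.0025 to 0.0494 (Nfe2l2). For the combination against tirzepatide they ran from -0.0934 to 0.0071 (Pgls), -0.0812 to 0.0265 (Rpia), -0.0078 to 0.0199 (Me1) and -0.0193 to 0.0435 (Nfe2l2), and against oxLDL from -0.0795 to 0.0209 (Pgls), -0.0232 to 0.0520 (Nfe2l2) and -0.0318 to 0.0951 (Keap1). For the interaction they ran from -0.0690 to 0.0560 (Pgls), -0.0923 to 0.0154 (Rpia) and -0.0465 to 0.0288 (Nfe2l2).

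Calls over all genes numbered 514 with oxLDL (307 to 813 under alternatives, 307 to 594 without 1 library), 462 with tirzepatide (204 to 857, 119 to 542), 174 for the combination against tirzepatide (107 to 378, 58 to 444), 4 against oxLDL (4 to 32, 2 to 8) and 8 for the interaction (5 to 48, 1 to 16). Depth limited Nqo1, at 1 to 8 counts per library.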

Other observations

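The deposited table's own annotation puts 33 genes in the KEGG pentose phosphate pathway, a list taken up after the table was seen. Of its 23 tested genes 3 rose with oxLDL, G6pdx, Pgd and H6pd, where 2.49% of all tested genes rose and 2.05% fell. The 1 that fell was the platelet-type phosphofructokinase Pfkp (log2 change -0.21, SE 0.05, adjusted p = 0.0179 by edgeR). Phosphofructokinase commits sugar phosphate to glycolysis, but RNA levels do not measure the flow of sugar, which was not tested. With tirzepatide G6pdx and Pgd rose and the muscle-type Pfkm fell (log2 change -0.29, adjusted p = 0.0303 by edgeR), where 2.34% of all tested genes rose and 1.74% fell. Of the 17 tested genes of this list that are no members, 1 rose and 1 fell with oxLDL, and 0 rose and 1 fell with tirzepatide. These counts are near the shares of all genes and are no result about the list. With oxLDL Pfkm had a log2 change of -0.20, without a call (adjusted p = 0.135 by edgeR). Pfkp had -0.06 with tirzepatide (SE 0.05, adjusted p = 0.601 by edgeR). Another phosphofructokinase, Pfkl, had -0.09 with oxLDL and 0.03 with tirzepatide, and neither passed. The calls of Pfkp and Pfkm were not followed over the alternative settings, in some of which the call of H6pd was lost.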
